A study of Mus musculus with 19 samples.

Results

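The genes described here are 9 transcription factors of the trophectoderm, the outer epithelium of the blastocyst: Cdx2, Gata3, Gata2, Eomes, Tfap2a, Tfap2c, Elf5, Tead4 and Id2. They were matched by symbol, by a rule that uses no measured value, and each symbol matched 1 of the 53379 gene rows of the deposited table. RNA was sequenced from 19 single mouse embryos of strain B6D2F1, made by in vitro fertilisation, cultured in KSOM medium and collected 96 hours after insemination. Embryos from the cross of Alyref+/- animals gave 2 morulae labelled Alyref KO, 3 morulae and 3 blastocysts labelled WT or hetero. Embryos from the cross of Gabpb1+/- animals gave 3 morulae labelled Gabpb1 KO, 2 morulae and 3 blastocysts labelled WT or hetero. A further 3 blastocysts came from WT mice. The groups labelled WT or hetero are called non-KO below and may mix both genotypes. No KO blastocyst was among the samples, and all morulae had the same age as the blastocysts, so a non-KO morula is an embryo that was still labelled a morula when others of its cross were labelled blastocysts. Each library held the RNA of a whole embryo, so fewer cells of a type and less RNA per cell cannot be told apart. Nothing in the labels says which embryos shared parents or a day. In the main fit, p-values weigh each difference against a spread between embryos that is estimated over all 7 groups together.

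The trophectoderm forms from the outer cells of the morula and later gives rise to the placenta, while the inner cells form the inner cell mass. In outer cells the Hippo pathway is inactive, the coactivator Yap1 enters the nucleus, and Yap1 with the DNA-binding protein Tead4 switches on Cdx2 and Gata3. Cdx2, Eomes, Elf5 and the AP-2 proteins then sustain trophoblast identity, Gata2 and Gata3 bind genes of trophoblast differentiation, and Id2 is an early marker of the outer cells. Alyref is an adaptor for export of mRNA from the nucleus. Gabpb1 is the beta subunit of GABP, a transcription factor whose alpha subunit binds DNA through an ETS domain.

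Promoter windows from 250 bases before to 50 bases after an annotated start were taken from RefSeq (build GRCm38.p6). They were found for 7 of the 9 genes, in 10 windows, because Gata2, Tfap2a and Elf5 had 2 each. Windows of Gata2, Elf5, Eomes and Id2 are shown because these 4 genes had the largest differences between morulae and blastocysts, averaged over both crosses. Of the 2 windows of Gata2 and of Elf5, the one with a match to the Tead sequence is shown; the others start at chr6 position 88193641 and chr2 position 103423818 and hold none. The windows are written 5′ to 3′ on the strand of the gene, and capitals mark the reverse complement of GGAATG, the core sequence recognised by Tead proteins.
Gata2, chr6:88198414-88198713, plus strand: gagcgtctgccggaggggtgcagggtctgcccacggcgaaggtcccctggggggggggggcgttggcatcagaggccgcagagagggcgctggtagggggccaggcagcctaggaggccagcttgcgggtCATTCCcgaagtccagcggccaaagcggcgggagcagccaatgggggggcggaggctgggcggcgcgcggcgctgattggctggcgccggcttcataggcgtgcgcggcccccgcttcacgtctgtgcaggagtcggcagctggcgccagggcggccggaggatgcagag
Elf5, chr2:103411848-103412147, plus strand: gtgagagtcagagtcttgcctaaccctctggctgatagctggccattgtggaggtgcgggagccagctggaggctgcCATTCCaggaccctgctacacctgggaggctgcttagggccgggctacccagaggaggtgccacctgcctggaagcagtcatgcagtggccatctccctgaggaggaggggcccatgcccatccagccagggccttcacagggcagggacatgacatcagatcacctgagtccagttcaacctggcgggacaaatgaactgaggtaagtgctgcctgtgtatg
Eomes, chr9:118477939-118478238, plus strand: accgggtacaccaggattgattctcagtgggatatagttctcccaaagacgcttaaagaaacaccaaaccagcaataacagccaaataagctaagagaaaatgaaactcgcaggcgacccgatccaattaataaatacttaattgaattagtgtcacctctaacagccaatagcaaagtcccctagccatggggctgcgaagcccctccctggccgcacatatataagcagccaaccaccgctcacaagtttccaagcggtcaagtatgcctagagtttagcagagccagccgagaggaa
Id2, chr12:25096043-25096342, minus strand: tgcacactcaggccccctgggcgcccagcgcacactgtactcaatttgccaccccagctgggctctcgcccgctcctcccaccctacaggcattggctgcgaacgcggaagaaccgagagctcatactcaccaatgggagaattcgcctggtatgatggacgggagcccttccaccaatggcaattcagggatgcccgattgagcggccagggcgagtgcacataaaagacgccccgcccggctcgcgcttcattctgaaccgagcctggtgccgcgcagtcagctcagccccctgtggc
GGAATG, searched on both strands, was found in the Gata2 window and the Elf5 window shown and in no other of the 10, against 14.7% of 32851 mouse promoter windows. The letters CCGGAAGT, the sequence bound by GABP, were in none of the 10 windows and in 3.89% of all windows. The letters AGATAA, recognised by GATA proteins, were in none of the 10 and in 11.2% of all. GCCNNNGGC, an AP-2 sequence, was in the Cdx2 and Gata3 windows and in the Gata2 window shown, and in 16.6% of all. TTTATG, a CDX sequence, was in the Id2 window, 1 Elf5 window and 1 Tfap2a window, and in 11.9% of all. These matches describe letters in the windows and show no binding.

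Gene counts ranged from 7486125 to 31536282 per embryo, and ERCC spike-in RNA, added in equal amount to each lysate, took 0.501% to 1.95% of the counts. Within a gene, values are given as CPM, counts brought to a common library size with TMM factors. Between genes they are given as FPKM, counts divided by the deposited exon length and the total gene counts, without TMM factors. Differences are log2 fold changes from edgeR's quasi-likelihood test with Benjamini-Hochberg adjustment over 18410 tested genes, all 9 members among them, and a gene is called at an adjusted p under 0.05. Alyref stood at 47.8 and 58.5 CPM in the morulae labelled Alyref KO and at 210, 291 and 162 CPM in the non-KO morulae of the cross, a log2 fold change of -2.05 (adjusted p = 0.0227). That call is lost without either KO morula or without non-KO morula 1, with adjusted p of 0.14, 0.151 and 0.065. Gabpb1 stood at 78.3, 259 and 151 CPM in the morulae labelled Gabpb1 KO and at 93.8 and 83.3 CPM in the non-KO morulae, so its RNA did not fall with the label (log2 fold change 0.88, adjusted p = 0.243). The labels do not say which part of the gene was altered, and the count covers the whole gene, so the label Gabpb1 KO could not be checked. Results on these 3 embryos are for morulae so labelled. Of 10 cumulus and granulosa cell markers, 1 was at 0 in every embryo and 4 never exceeded 3 counts. Their summed level was at most 24 CPM and came mostly from Amhr2. The 6 sperm markers summed to at most 2.15 CPM.

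Per length, Id2 was the most abundant of the 9 in blastocysts, with a mean of 363.5 ± 101 FPKM (SD, n = 9), and Elf5 the least, with 3.52 ± 2.41 FPKM. Gata3 followed Id2 at 59.7 ± 15.4 FPKM, then Tead4 at 25.8 ± 4.77, Eomes at 18.9 ± 5.73, Tfap2c at 13.8 ± 5.92 and Cdx2 at 11.5 ± 1.70 FPKM. Gata2 at 7.14 ± 2.07 and Tfap2a at 3.92 ± 1.91 FPKM stood between Cdx2 and Elf5. In the 10 morulae the medians were 36.9 FPKM for Id2, 22.6 for Tfap2c, 20.8 for Gata3 and 20.3 for Tead4, and below 5 FPKM for the other 5 genes. Tead4 and Tfap2c varied least over the 19 embryos. Their highest-to-lowest ratio of CPM was 2.81 and 4.80, against 15.7 for Gata3, 113 for Eomes and 139 for Tfap2a.

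**Figure D1:**
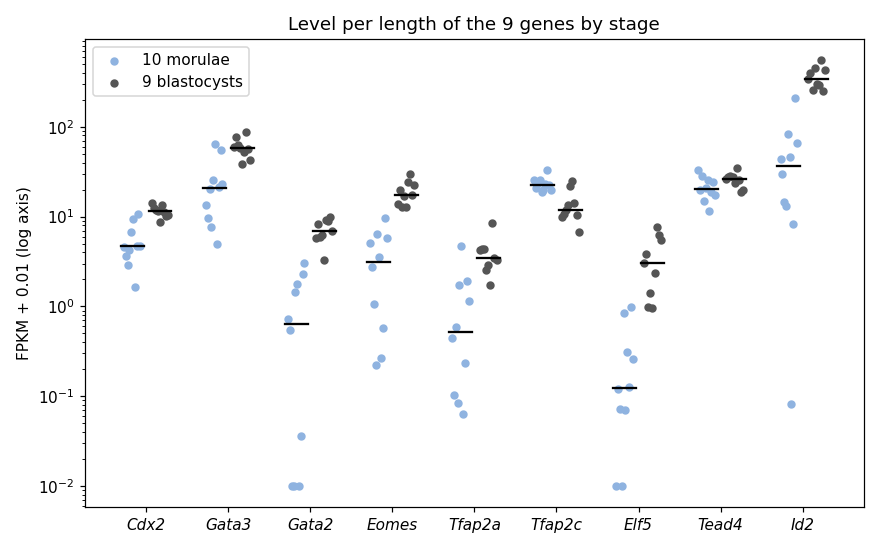
FPKM of the 9 genes (log axis, 0.01 added) in 10 morulae (light points, KO and non-KO together) and 9 blastocysts (dark points), with the median as a bar. Tfap2c is the only gene whose blastocyst median is below its morula median, and Id2 reaches a median of 342 FPKM in blastocysts.

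Tead4 (chromosome 6, positions 128224288 to 128300823, minus strand, build mm10) encodes the factor at the top of the pathway. Its level was 119 and 71.7 CPM in the morulae labelled Alyref KO and 107, 62.2 and 73.2 in the Alyref non-KO morulae. It was 89.0, 43.2 and 69.4 CPM in the morulae labelled Gabpb1 KO and 85.4 and 61.6 in the Gabpb1 non-KO morulae. In blastocysts it was 96.8, 98.4 and 95.3 (Alyref cross), 95.6, 87.3 and 122 (Gabpb1 cross) and 85.6, 67.7 and 72.8 CPM (WT). None of the 6 steps between groups ordered by mean separated the embryos of neighbouring groups. Groups farther apart in that order could separate: the blastocysts of each cross stood wholly above the WT blastocysts. The share of all tested genes with that separation was not computed. The lowest Tead4 value belonged to the morula labelled Gabpb1 KO 2, which recurs below.

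Cdx2 (chromosome 5, 147300805 to 147307270, minus strand), the homeodomain factor that maintains the trophectoderm and represses inner cell genes, was at 10.3 and 8.40 CPM in the morulae labelled Alyref KO and 6.73, 11.1 and 14.7 in the Alyref non-KO morulae. It was at 20.5, 3.89 and 10.9 CPM in the morulae labelled Gabpb1 KO and 23.2 and 10.4 in the Gabpb1 non-KO morulae. Blastocysts had 32.9, 27.8 and 25.0 (Alyref cross), 24.9, 20.4 and 29.6 (Gabpb1 cross) and 23.8, 22.8 and 24.1 CPM (WT). Only the morula labelled Gabpb1 KO 1 and Gabpb1 non-KO morula 1 reached the blastocyst range. Every group step by mean overlapped, as for Tead4. Here too groups farther apart could separate: the Alyref-cross blastocysts stood wholly above the WT blastocysts.

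Gata3 (chromosome 2, 9857078 to 9890034, minus strand), a zinc finger factor switched on beside Cdx2, showed the same embryos apart. It was at 52.5 and 38.8 CPM in the morulae labelled Alyref KO and 83.5, 34.8 and 99.8 in the Alyref non-KO morulae. It was at 243.4, 20.8 and 87.3 CPM in the morulae labelled Gabpb1 KO and 211 and 89.9 in the Gabpb1 non-KO morulae, so the KO-labelled group held both the highest and the lowest of the 10 morulae. Blastocysts ranged from 158 to 327 CPM. An antisense gene that overlaps Gata3, Gm13256, had at most 206 counts in any embryo, and the strand setting of the counting is not given in the sources used here.

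Gata2 (chromosome 6, 88193891 to 88207032, plus strand), its relative, was at or near background in several morulae. It was at 3.83 and 2.94 CPM in the morulae labelled Alyref KO, and in the Alyref non-KO morulae it had no count in 2 embryos and 7.64 CPM in the third. Those zeros allow at most 0.163 and 0.253 CPM, the value of 3 counts. The morulae labelled Gabpb1 KO had 9.21 CPM, no count (at most 0.278 CPM) and 0.142 CPM, and the Gabpb1 non-KO morulae 12.1 and 16.3 CPM. Blastocysts had 17.9 to 53.1 CPM, so every blastocyst stood above every morula. The share of all tested genes with this separation over all embryos was not computed, here or for Eomes and Id2 below. In the order of group means, the Gabpb1 non-KO morulae separated from the morulae labelled Alyref KO below and the Gabpb1 blastocysts above.

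Eomes (chromosome 9, 118478212 to 118486132, plus strand), a T-box factor of trophoblast stem cells, was at 20.99 and 11.5 CPM in the morulae labelled Alyref KO and 4.62, 1.01 and 26.1 in the Alyref non-KO morulae. It was at 14.3, 1.11 and 2.41 CPM in the morulae labelled Gabpb1 KO and 39.1 and 23.4 in the Gabpb1 non-KO morulae. Blastocysts had 49.4 to 115 CPM, again above every morula. Its antisense neighbour Gm33460 had at most 140 counts.

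Elf5 (chromosome 2, 103411688 to 103450989, plus strand), an ETS-family factor that locks in the trophoblast fate, was the lowest of the 9 genes in morulae. It had no count in the morula labelled Alyref KO 1 (at most 0.396 CPM) and 0.667 CPM in KO 2, against 0.380, none and 4.79 CPM in the Alyref non-KO morulae. The morulae labelled Gabpb1 KO had 0.344, 1.85 and 0.709 CPM and the Gabpb1 non-KO morulae 5.62 and 1.45. Blastocysts had 18.2, 22.4 and 5.31 CPM in the Alyref cross and 7.99, 5.68 and 13.4 in the Gabpb1 cross, below the 41.5, 36.4 and 32.7 CPM of the WT embryos. The WT embryos, with a mean of 36.9 ± 4.42 CPM (SD, n = 3), did not overlap either cross, but neither difference was called. The log2 fold change was -1.26 (SE 0.966) for the Alyref cross and -2.02 (SE 0.993) for the Gabpb1 cross, with adjusted p of 1 and 0.821. Other members also separated from WT: Cdx2 and Tead4 in the Alyref cross, Tfap2a and Tead4 in the Gabpb1 cross. The share of all tested genes that separate from WT was not computed.

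Tfap2a and Tfap2c encode AP-2 alpha and AP-2 gamma, which share a DNA-binding domain, and in the Alyref cross their differences between stages had opposite signs, of which that of Tfap2c passed the test. Tfap2a (chromosome 13, 40715302 to 40738376, minus strand) was at 2.11 and 0.467 CPM in the morulae labelled Alyref KO and 2.93, 0.422 and 8.16 in the Alyref non-KO morulae. It was at 22.4, 0.278 and 1.14 CPM in the morulae labelled Gabpb1 KO and 9.11 and 5.55 in the Gabpb1 non-KO morulae, against 8.32 to 38.7 CPM in blastocysts. Again the KO-labelled group of the Gabpb1 cross held the highest and the lowest morula. Antisense genes overlap Tfap2a, the largest being Gm26688 with at most 115 counts.

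Tfap2c (chromosome 2, 172549593 to 172558622, plus strand) was at 92.4 and 78.6 CPM in the morulae labelled Alyref KO and 91.4, 109 and 66.4 in the Alyref non-KO morulae. It was at 70.8, 88.0 and 123 CPM in the morulae labelled Gabpb1 KO and 79.5 and 71.8 in the Gabpb1 non-KO morulae. Blastocysts had 37.3, 39.5 and 40.2 (Alyref cross), 47.2, 83.0 and 89.1 (Gabpb1 cross) and 48.3, 38.0 and 25.6 CPM (WT). The blastocysts of the Gabpb1 cross stood wholly above those of the Alyref cross, a separation whose share over all tested genes was not computed. Against WT blastocysts their log2 fold change was 0.97 (SE 0.285, adjusted p = 0.593).

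Id2 (chromosome 12, 25093799 to 25097140, minus strand) encodes a helix-loop-helix protein that lacks a DNA-binding region and holds its partners off DNA. It had the widest spread of the 9 genes among those seen in every embryo. It was at 106 and 73.6 CPM in the morulae labelled Alyref KO and 36.8, 36.4 and 198 in the Alyref non-KO morulae. It was at 107, 0.185 and 20.3 CPM in the morulae labelled Gabpb1 KO, the middle value resting on 2 counts, and 493 and 158 in the Gabpb1 non-KO morulae. Blastocysts had 578.7 to 1257 CPM, above every morula.

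**Figure D2:**
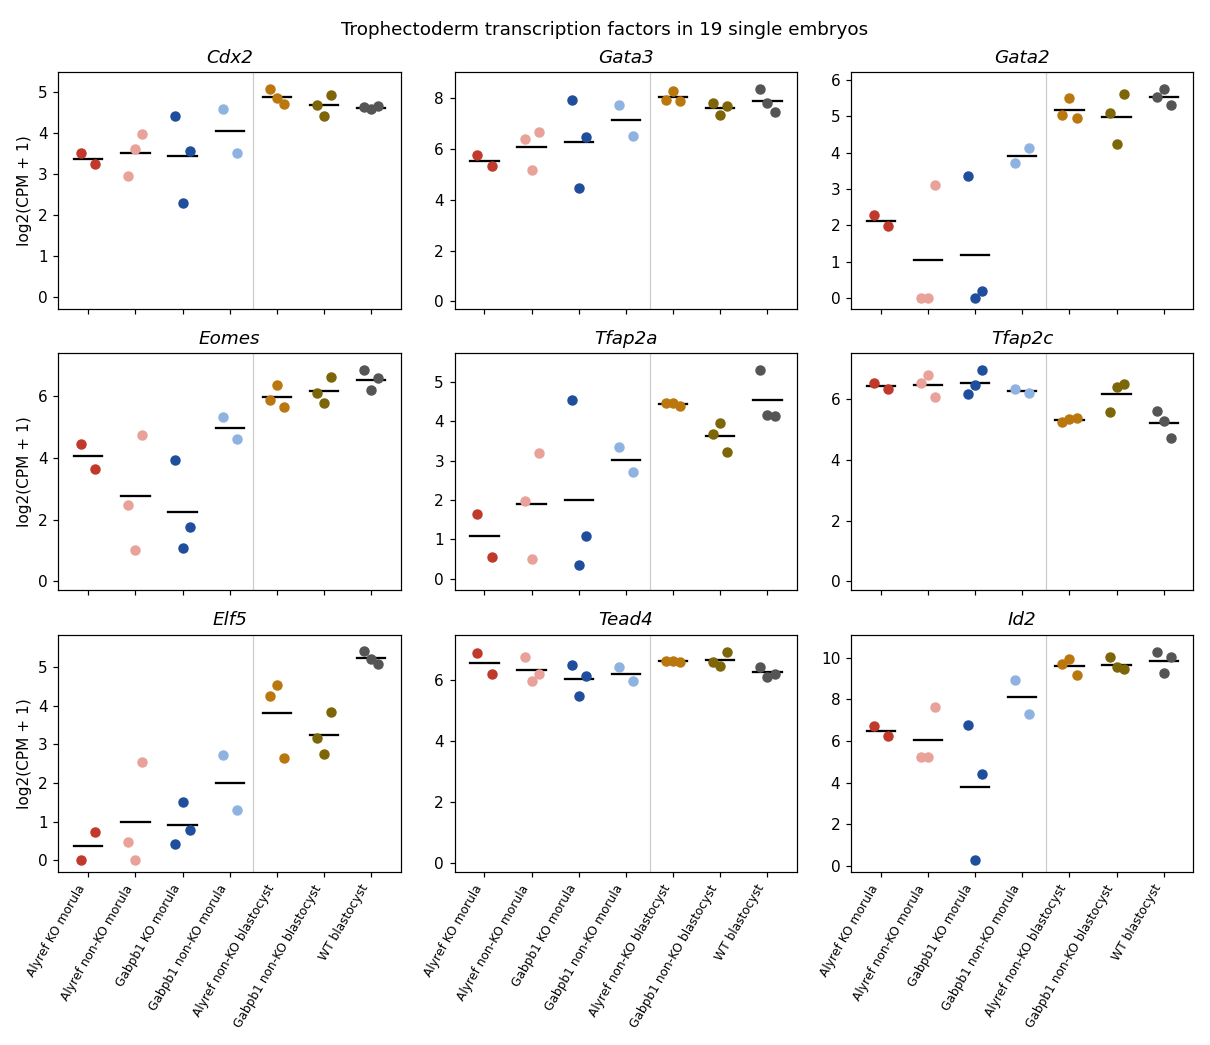
Level of each gene as log2(CPM + 1) in the 7 groups (points, single embryos; bars, group means of the log values; grey line, the boundary between morulae and blastocysts). Gata2, Eomes and Id2 show no blastocyst at or below any morula, and Tead4 stays within a narrow band in all groups. The share of all tested genes that separate in this way was not computed.

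The stage comparison sets non-KO blastocysts against non-KO morulae of the same cross. In the Alyref cross 8 of the 9 genes had a positive log2 fold change, with a median over the 9 of 2.42 against -0.0369 over all tested genes. Only Tfap2c was called: it fell by 1.19 on the log2 scale (SE 0.286, adjusted p = 0.0184), from 89.0 ± 21.4 CPM to 39.0 ± 1.52 (SD, n = 3 each). The count of 1 called gene compares with 13.0% of all tested genes called in that comparison. In 7 genes (all but Tead4 and Tfap2c) every blastocyst stood above every morula, a separation seen upward in 19.6% of tested genes. The sizes were 1.397 (SE 0.454) for Cdx2, 1.84 (SE 0.614) for Gata3, 3.78 (SE 1.44) for Gata2 and 2.58 (SE 0.888) for Eomes. They were 2.42 (SE 1.10) for Tfap2a, 3.13 (SE 1.06) for Elf5 and 3.14 (SE 1.09) for Id2, and the adjusted p of these 7 lay between 0.0532 and 0.146. Tead4 differed by 0.26 (SE 0.274).

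Alyref non-KO morula 3 bore on these calls. It had the highest level of Cdx2, Gata3, Gata2, Eomes, Tfap2a, Elf5 and Id2 among the 3 non-KO morulae of its cross and the lowest of Tfap2c. Without it 7 of the 9 genes were called: Cdx2, Gata3, Gata2, Eomes, Elf5 and Id2 higher in blastocysts, Tfap2c lower. Both remaining non-KO morulae of the cross had no Gata2 count. The Gata2 calls in this and the later fits without morula 3 rest on those zeros. The Tfap2c call was lost without either of the other non-KO morulae or without blastocyst 1 or 2, and it held in 8 of 14 alternative settings.

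In the Gabpb1 cross none of the 9 genes was called between blastocysts and non-KO morulae. Of all tested genes 0% were called, and 1237 had an unadjusted edgeR p under 0.05. The median log2 fold change of the 9 was 0.66 against 0.0204 over all genes, and 8 were positive. In 5 genes (Gata2, Eomes, Elf5, Tead4 and Id2) every blastocyst stood above both morulae, against 11.4% of tested genes. Differences ranged from -0.05 (SE 0.315) for Tfap2c to 1.36 (SE 1.17) for Id2. Gabpb1 non-KO morula 1 was within the blastocyst range for 6 of the 9 genes and was the highest of the 10 morulae for Cdx2, Eomes, Elf5 and Id2. The difference of the stage effect between the crosses was tested directly and was called for none of the 9, with 0.00543% of genes called in all. It was largest against its error for Tfap2c, at 1.14 (SE 0.427, adjusted p = 0.283). Without Alyref non-KO morula 3 it was called for 1 gene, Gata2, which had no count in the remaining Alyref non-KO morulae.

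Averaged over both crosses, 0 of the 9 genes were called while 4.36% of tested genes were. Unadjusted edgeR p-values were under 0.05 for 7 of them. The log2 fold changes were 0.98 for Cdx2, 1.11 for Gata3, 2.49 for Gata2, 1.91 for Eomes and 1.54 for Tfap2a. They were 2.24 for Elf5, 2.25 for Id2, 0.36 for Tead4 and -0.62 for Tfap2c, with adjusted p from 0.0882 to 0.297. In Gata2, Eomes and Id2 all 6 blastocysts stood above all 5 morulae, against 2.51% of genes. Without Alyref non-KO morula 3, 6 of the 9 were called, which were Cdx2, Gata2, Eomes, Elf5 and Id2 higher and Tfap2c lower. Scaling by the spike-in RNA moved the median of all genes to -0.339, -0.856 and -0.609 in the Alyref cross, the Gabpb1 cross and their mean. On that scale Cdx2, Gata3, Tfap2a and Tead4 turned negative in the Gabpb1 cross, at -0.35, -0.49, -0.20 and -0.46, still above the median of all genes.

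The morulae labelled Alyref KO did not differ by any call from the non-KO morulae of the cross. The 9 genes had a median log2 fold change of -0.06 against -0.0375 over all genes, 3 positive and 6 negative. The groups overlapped for all 9. Of tested genes, 12.5% had the KO-labelled morulae wholly above and 12.3% wholly below. In this comparison 0.228% of tested genes were called. The differences were -0.22 (SE 0.509) for Cdx2, -0.67 (SE 0.683) for Gata3, 0.39 (SE 1.52) for Gata2 and 0.61 (SE 0.945) for Eomes. They were -1.67 (SE 1.35) for Tfap2a, -0.06 (SE 0.315) for Tfap2c, -2.11 (SE 1.39) for Elf5, 0.23 (SE 0.305) for Tead4 and -0.01 (SE 1.13) for Id2. The adjusted p was 0.593 or more for each, and 0 of the 9 had an unadjusted edgeR p under 0.05. The errors of Gata2, Tfap2a, Elf5 and Id2 exceed 1 log2 unit, so differences of that size were not detectable with 2 and 3 embryos. DESeq2 called none of the 9, and voom with embryo weights called Gata2 higher, with a log2 fold change of 5.85 (adjusted p = 0.022). Non-KO morulae 1 and 2 had no Gata2 count. Non-KO morula 3, at 7.64 CPM, stood above both KO-labelled morulae, at 3.83 and 2.94 CPM. The size of the voom value therefore rests on counts of 0.

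The morulae labelled Gabpb1 KO had lower values of 7 of the 9 genes on average, with a median log2 fold change of -0.52 against 0.0575 over all genes. None was called, in a comparison that called 1.65% of tested genes. The differences farthest from 0 were those of Id2 at -2.94 (SE 1.14, adjusted p = 0.187), Eomes at -2.40 (SE 0.953, adjusted p = 0.194), Gata2 at -2.19 (SE 1.46, adjusted p = 0.433) and Elf5 at -1.88 (SE 1.16, adjusted p = 0.399). Eomes and Id2 had unadjusted edgeR p-values of 0.0233 and 0.0206. In Id2, Eomes and Gata2 all 3 KO-labelled morulae stood below both non-KO morulae, against 16.4% of tested genes. The other differences were -0.52 (SE 0.496) for Cdx2, -0.36 (SE 0.661) for Gata3, 0.11 (SE 1.18) for Tfap2a, 0.31 (SE 0.317) for Tfap2c and -0.13 (SE 0.306) for Tead4.

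The 3 morulae labelled Gabpb1 KO were far from alike. Number 1 was within or above the blastocyst range for Cdx2, Gata3, Tfap2a, Tfap2c and Tead4, while number 2 was the lowest of the 10 morulae for Cdx2, Gata3, Tfap2a, Tead4 and Id2. Number 2 also had the largest spike-in share of all embryos, 1.95%, and the fewest genes with a count, 23167. Number 1 had the smallest spike-in share of all embryos, 0.501%, and the largest share of counts from mitochondrially encoded genes, 5.74%. Whether these library traits bear on the levels was not tested, and the fits without each embryo follow. Without number 1, Gata2, Eomes and Id2 were called lower. Gata2 was at -7.33 (adjusted p = 0.0441), Eomes at -4.12 (adjusted p = 0.0348) and Id2 at -4.97 (adjusted p = 0.0353). The size of the Gata2 value rests on 0 and 2 counts in numbers 2 and 3. Without number 2 none was called, with Eomes at -1.94 (adjusted p = 0.362), Id2 at -2.38 (adjusted p = 0.2) and Gata2 at -1.64 (adjusted p = 0.617), and Gata3 and Tead4 turned positive. The other ways of leaving out 1 embryo gave no call. Voom with embryo weights, which gives less weight to embryos that stand apart, called the same 3 genes, Gata2, Eomes and Id2, lower (adjusted p = 0.0378, 0.0471 and 0.0493), and DESeq2 called none. With all 5 non-KO morulae as the control, a choice made after seeing the data, Id2 was at -2.01, Eomes at -1.62 and Gata2 at -0.96 (adjusted p = 0.319, 0.34 and 0.748).

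**Figure D3:**
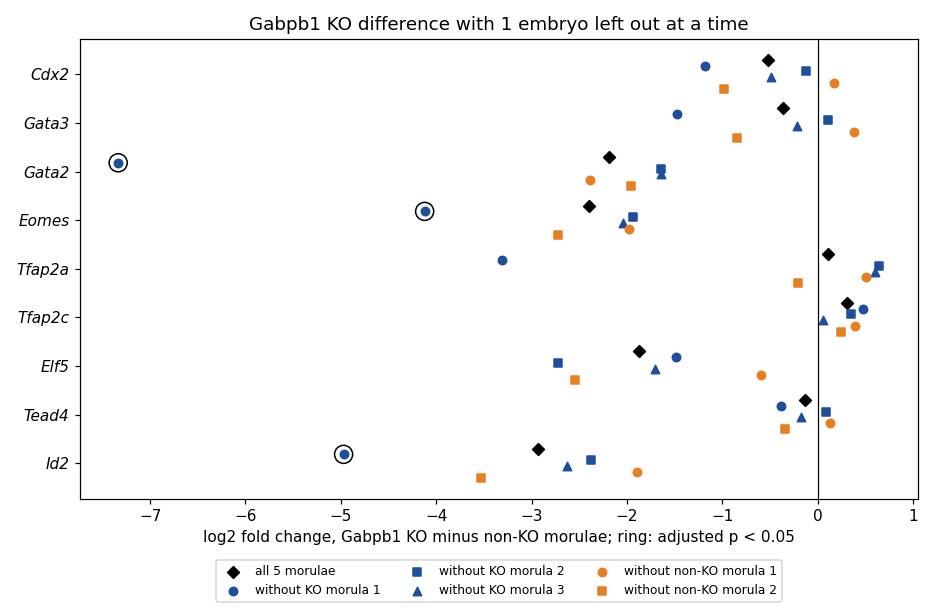
Log2 fold change of each gene between the morulae labelled Gabpb1 KO and the non-KO morulae, with all 5 embryos (diamonds) and with 1 embryo left out (other markers); rings mark an adjusted p under 0.05. Rings appear for Gata2, Eomes and Id2 without KO morula 1 and nowhere else.

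**Figure D4:**
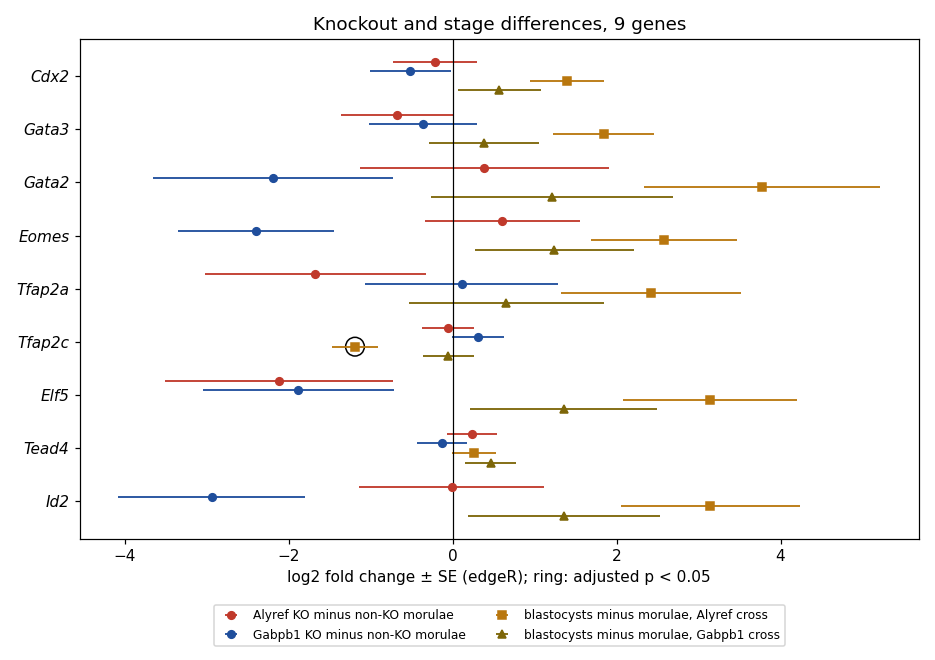
Log2 fold change ± SE of the 9 genes in the KO comparisons (circles) and the stage comparisons (squares and triangles); a ring marks an adjusted p under 0.05. The only ring is on Tfap2c in the Alyref cross, at -1.19.

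The difference between the effects of the labels, Gabpb1 minus Alyref, was called for none of the 9 genes, and for 0.907% of all. Eomes came closest with -3.01 (SE 1.33, adjusted p = 0.267). The non-KO morulae of the crosses also differed from each other, in 1.86% of tested genes and in none of the 9, with a median over the 9 of 1.02. Without Alyref non-KO morula 3, Gata2 and Eomes were called in the first comparison and Gata2, Eomes and Elf5 in the second.

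Against the blastocysts of their own cross, the morulae labelled Alyref KO had 3 genes called, beside 13.0% of all tested genes. On the log2 scale Gata3 was at -2.52 (SE 0.739, adjusted p = 0.0371). Elf5 was at -5.25 (SE 1.48, adjusted p = 0.0318) and Tfap2c at 1.13 (SE 0.311, adjusted p = 0.0281). The 2 KO-labelled morulae stood below all 3 blastocysts for 7 genes, against 28.8% of tested genes. Leaving out any of the 5 embryos lost all 3 calls, except that Elf5 was kept without blastocyst 3 (adjusted p = 0.0416). The morulae labelled Gabpb1 KO had 2 genes called, Eomes at -3.64 (SE 0.938, adjusted p = 0.0282) and Id2 at -4.30 (SE 1.15, adjusted p = 0.0327), beside 8.92% of all tested genes. They stood wholly below the blastocysts for Gata2, Eomes, Elf5 and Id2, against 13.4% of genes. Without KO morula 1 there were 6 calls, without KO morula 3 or without blastocyst 1 or 3 there were none, and without KO morula 2 only Id2 was called. These differences join stage and label, and they share the blastocysts with the stage comparison. Blastocysts of the Alyref cross against WT blastocysts gave no call among the 9 genes, and 0% of all genes, with 541 genes at an unadjusted edgeR p under 0.05. Blastocysts of the Gabpb1 cross against WT also gave none, and 0% of all, with 1123 at an unadjusted edgeR p under 0.05.

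Set against the mean of the 9 blastocysts, the median over the 9 genes of each morula ranged from -3.69 in Alyref non-KO morula 2 to -0.30 in the morula labelled Gabpb1 KO 1, in log2(CPM + 1). The morulae labelled Alyref KO were at -2.09 and -2.59, inside the range of the Alyref non-KO morulae, which were at -2.22, -3.69 and -1.18. The morulae labelled Gabpb1 KO were at -0.30, -3.39 and -3.11 and the Gabpb1 non-KO morulae at -0.78 and -1.33. The groups overlapped in both crosses. Tfap2c was above the blastocyst mean in all 10 morulae.

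**Figure D5:**
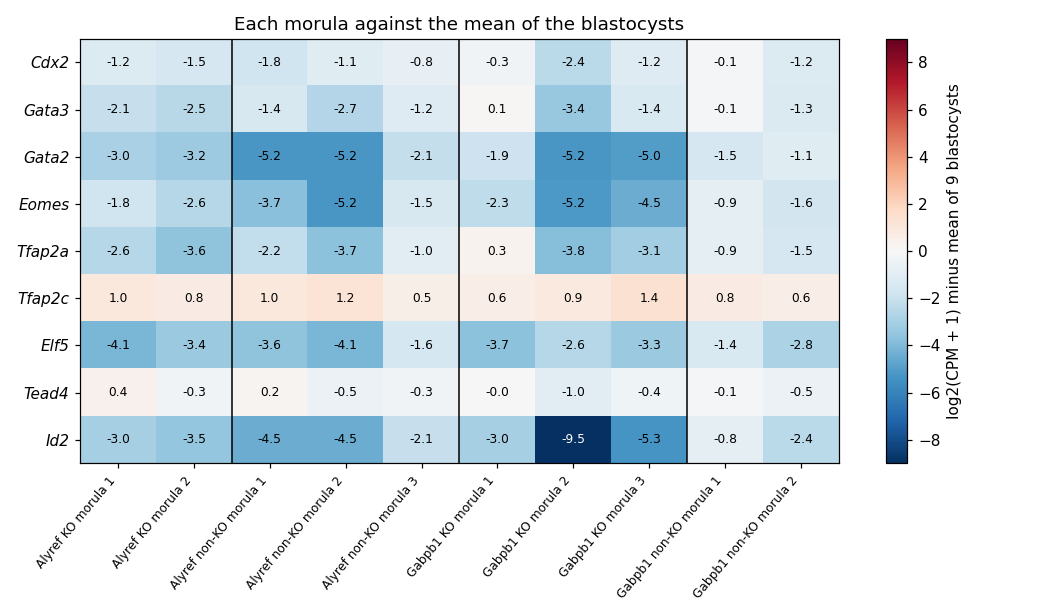
Log2(CPM + 1) of the 9 genes in each of the 10 morulae minus the mean of the 9 blastocysts (blue, lower; red, higher; black lines separate the groups). Tfap2c is red in all 10 embryos, and the darkest cell is Id2 in the morula labelled Gabpb1 KO 2.

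Genes that act downstream of these factors were followed as a list of 18 trophectoderm effectors, such as keratins, junction proteins and receptors, all of which were tested. Between the morulae labelled Gabpb1 KO and the non-KO morulae all 18 differences were negative, with a median of -2.01, and 2 passed the test. Over all tested genes the median was 0.0575, 52.9% of differences were positive and 1.65% were called. Fgfbp1, a carrier of fibroblast growth factors, fell from 12.9 to 2.06 CPM, a log2 fold change of -2.65 (adjusted p = 0.0343). Cldn4, a tight junction claudin, fell from 549.7 to 242 CPM, a log2 fold change of -1.18 (adjusted p = 0.0446). Both calls were lost when KO morula 2, KO morula 3 or non-KO morula 2 was left out, Fgfbp1 also without non-KO morula 1. The Alyref non-KO morulae had 2.05 CPM of Fgfbp1 and 216 CPM of Cldn4, near the KO-labelled group. With the non-KO morulae of both crosses as control neither gene was called (Fgfbp1 -1.32, adjusted p = 0.175; Cldn4 -0.51, adjusted p = 0.27). The summed level of the list was 6003 and 7668 CPM in the 2 Gabpb1 non-KO morulae, above the other 8 morulae. It was 873 to 4530 CPM in the KO-labelled group, 1802 to 3460 in the Alyref non-KO morulae and 1518 and 2793 in the morulae labelled Alyref KO. In the Alyref comparison 0 of the 18 were called, the median was -0.26, and the smallest unadjusted p was that of Fgfbp1 (-2.03, adjusted p = 0.224). Across both crosses Tspan8, a tetraspanin, Lcp1, an actin-bundling protein, and Fgfr2, the receptor through which FGF4 acts on the trophectoderm, were higher in blastocysts by 2.53, 2.27 and 1.24 (adjusted p = 0.0473, 0.0288 and 0.0348), and 16 of the 18 were positive, against 48.6% of all genes positive and 4.36% called. In the Alyref cross 10 of the 18 effectors were called, all higher in blastocysts, and 16 were positive, beside 13.0% of all tested genes called. In the Gabpb1 cross 0 of the 18 were called and 11 were positive, beside 0% of all tested genes called. Tspan8, Lcp1 and Fgfr2 were all called in the Alyref cross, at 4.04, 3.75 and 1.72. None of these 3 was called in the Gabpb1 cross, at 1.02, 0.80 and 0.76. The difference between the crosses was not called for any of them (adjusted p = 0.317, 0.238 and 0.475). When each of 11 embryos was left out in turn, Tspan8 was called 1 time and Lcp1 and Fgfr2 3 times each.

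Of 14 other trophoblast transcription factors, 12 were tested. Hand1, a basic helix-loop-helix factor of trophoblast giant cells, was lower in blastocysts over both crosses, with a log2 fold change of -4.56 (adjusted p = 0.0267). It stood at 0.406 CPM in blastocysts and 35.4 CPM in non-KO morulae, where it reached 145 CPM in Alyref non-KO morula 2, and it was called in 4 of the 11 fits without 1 embryo. By cross it was at -7.01 (Alyref, adjusted p = 0.00956) and -2.11 (Gabpb1, adjusted p = 0.841). Hand1 was at 5.34, 41.5 and 21.4 CPM in the morulae labelled Gabpb1 KO and 1.35 and 1.07 in the non-KO morulae, a difference of 4.22 that was not called (adjusted p = 0.138). In the Alyref comparison no factor of the list was called, and Bhlhe40 had the smallest unadjusted p (4.37, adjusted p = 0.351).

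Of 17 partners of Tead4 and genes of the Hippo pathway, 16 rows were tested and 0 were called in either KO comparison or in the stage comparison over both crosses. Of all tested genes 0.228% (Alyref), 1.65% (Gabpb1) and 4.36% (stage) were called in these. Within the Alyref cross 1 of the 16 was called lower in blastocysts, beside 13.0% of all tested genes called. The smallest unadjusted p-values were those of Sav1, a Hippo scaffold (1.11, adjusted p = 0.266), in the Alyref comparison, Yap1 itself (0.77, adjusted p = 0.202) in the Gabpb1 comparison, and Mob1b, a kinase activator (-0.73, adjusted p = 0.0839), between stages. In the Gabpb1 comparison the Hippo list had a median of 0.07, near the 0.0575 of all genes.

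Among 6 Id proteins and their E protein partners, of which 4 were tested, none was called in either KO comparison or in the stage comparison over both crosses. Within the Alyref cross 1 of the 4 was called lower in blastocysts, beside 13.0% of all tested genes called. Id3, the relative of Id2, was at 85.8, 221 and 195 CPM in the morulae labelled Gabpb1 KO and 26.8 and 25.3 in the non-KO morulae, opposite in sign to Id2, at 2.68 (SE 0.736, adjusted p = 0.0758). Id3 had -0.82 (adjusted p = 0.689) in the Alyref comparison, and Tcf3, an E protein, 0.64 (adjusted p = 0.353) between stages. Of 12 further members of the GATA, AP-2, CDX, T-box and ETS families, 6 were tested. Tfap2e, another AP-2 gene, rose in the morulae labelled Gabpb1 KO from 0.487 to 5.52 CPM, by 3.48 (adjusted p = 0.0468), and lost the call in 9 of 14 alternative settings. Gata1 had -2.40 (adjusted p = 0.368) in the Alyref comparison and -2.39 (adjusted p = 0.0528) between stages.

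Of 14 inner cell mass genes, 1 was called in the Alyref comparison and 1 between stages over both crosses, where 0.228% and 4.36% of all tested genes were called. Within the Alyref cross 3 of the 14 were called, all lower in blastocysts, beside 13.0% of all tested genes called. Gdf3, a signalling ligand of the TGF-beta family, was lower in the morulae labelled Alyref KO, at -3.67 (adjusted p = 0.037), and lost the call without either KO morula or non-KO morula 1. Nanog, a pluripotency factor, was lower in blastocysts, at -0.88 (adjusted p = 0.0209), and was called in 7 of the 11 fits without 1 embryo. The crosses differed in sign: Nanog fell in the Alyref cross, from 339.5 to 88.0 CPM (-1.95, adjusted p = 0.00432), and stood at 130.2 CPM in the morulae and 149 CPM in the blastocysts of the Gabpb1 cross (0.19, adjusted p = 0.948). The difference between the crosses was 2.14 and was not called (adjusted p = 0.12). In the Gabpb1 comparison 0 of the 14 were called, 12 were positive, and Klf2 had the smallest unadjusted p (2.16, adjusted p = 0.0696). Of 13 primitive endoderm genes none was called in either KO comparison or in the stage comparison over both crosses. Within the Alyref cross 1 of the 13 was called higher in blastocysts, beside 13.0% of all tested genes called. The smallest unadjusted p-values were those of P4ha2 (-0.92, adjusted p = 0.194), Gata6 (0.77, adjusted p = 0.152) and Foxa2 (5.69, adjusted p = 0.0544) in the Alyref, Gabpb1 and stage comparisons. Foxa2 had no count in any non-KO morula, and its fitted value depends on the prior count. Amhr2, the tested cumulus marker, had -0.20, 1.04 and -1.07 in these comparisons (adjusted p = 0.942, 0.376 and 0.118). The sperm marker Tnp2 had 3.88, -0.18 and 1.78 (adjusted p = 0.525, 0.954 and 0.349), on means of at most 0.683 CPM.

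For each of the 9 genes, the genes with the most similar pattern over the 19 embryos were ranked by Pearson's r of log2(CPM + 1) among 11416 genes with a mean of at least 5 CPM. These values describe embryos that share their stage differences and their depth. The nearest were Arhgap22 (0.956), Cnksr1 (0.949) and Krt18 (0.946) for Cdx2, of which Krt18 is a keratin of the trophectoderm. For Gata3 they were Kdelc2, Myo1e and Sh3tc2 (0.962 to 0.959), and for Gata2 Tmprss2, 5730559C18Rik and Gulp1 (0.982 to 0.976). 5730559C18Rik was also second for Eomes (0.973), beside Ccdc42 (0.973) and Cib2 (0.969). For Tfap2a they were Golga4, Mtor and Dsg2 (0.966 to 0.951), for Tfap2c Slc35e4, Ubtd1 and Plekha1 (0.937 to 0.908), and for Elf5 Iah1, BC051665 and Cox5b (0.934 to 0.921). Id2 was followed by Pros1, Skap2 and Wnt3a (0.958 to 0.952). Tead4 had the weakest matches, Plekho2, Det1 and Fam3c (0.830 to 0.808). The order depends on the measure: of these 27 genes 6 were also among the first 3 for the same factor by Spearman's rho, and the others ranked as low as 176 (Skap2 for Id2). By rho Krt18 was at rank 48 for Cdx2.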

How the data were processed

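RNA from 19 single embryos was amplified by 16 PCR cycles and sequenced in 50 + 25 base pairs of reads, per the labels' protocols. The submitters' processing notes name Trimmomatic, Trim Galore, cutadapt, STAR, featureCounts and mm10, without versions or a strand setting. The authors deposited raw read counts per gene, although the table's name speaks of another unit, with each gene's length. All 9 rows have the same coordinates in GENCODE M21. The 92 spike-in rows were left out of library sizes. Tested genes had an FPKM, computed from counts and length, of at least 1 in at least 2 embryos (18410 of 39262 with any count). edgeR 4.0.16 (R 4.3.3) fitted all 7 groups together with TMM scaling, and each SE was derived from the fold change and its F statistic. The procedure was tested on simulated data. The rule for the 9 members uses no measured value, but they and all gene lists were chosen with earlier results of these data known. All 9 are named throughout; from each list, called genes (at most 6) or the gene with the smallest unadjusted p are named in 3 comparisons. A Gabpb1 and Alyref label check was included. Alternatives were DESeq2 1.42.0, limma 3.58.1 (voom), other scalings and filters, a replicate block, the compared groups alone and each embryo left out. A control of the non-KO morulae of both crosses was chosen after seeing the data. Counting intervals cover counting error only.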

Additional observations from a re-analysis of the deposited data

How the results depend on the processing

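Counts of called genes among the 9 changed as follows. With voom and embryo weights they were 1 (Alyref KO against non-KO morulae), 3 (Gabpb1 KO against non-KO morulae), 8 (stage, Alyref cross), 8 (stage, mean of crosses), 8 (Alyref KO against blastocysts), 5 (Gabpb1 KO against blastocysts), 3 (difference of KO effects), 1 (difference of stage effects) and 3 (non-KO morulae of the crosses), and unchanged in the other comparisons. With spike-in scaling they were 0 for the Alyref stage comparison and for both KO groups against blastocysts. The DESeq2 Wald test gave 6 (stage, Alyref cross), 4 (mean of crosses) and 5 (Alyref KO against blastocysts), and no filter on low counts gave 5 for the Alyref stage comparison. Fitting the compared groups alone gave 0 (stage, Alyref cross), 1 (mean of crosses), 8 (Alyref KO against blastocysts) and 0 (Gabpb1 KO against blastocysts). With 1 embryo left out at a time the counts ran from 0 to 3 (Gabpb1 KO against non-KO), 0 to 7 (stage, Alyref cross), 0 to 6 (mean of crosses), 0 to 1 (Alyref KO against blastocysts), 0 to 6 (Gabpb1 KO against blastocysts), 0 to 2 (difference of KO effects), 0 to 1 (difference of stage effects) and 0 to 3 (non-KO morulae); a lone embryo was assumed to vary like the other groups. The cause of these changes was not tested.

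Same-numbered embryos did not deviate together (correlations of -0.128 to 0.148), so the numbers do not pair them. A replicate block gave 3 calls in the Alyref stage comparison and changed no other count by over 1.5 times.

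Signs that turned belonged to differences that were not called. Between Alyref KO and non-KO morulae they were Cdx2 0.23, Tead4 -0.10 and Id2 0.93 under voom, Gata2 -0.12 and Tfap2c 0.0353 under spike-in scaling, Id2 0.0041 under DESeq2 size factors, 0.0056 by the DESeq2 test and 0.12 with the block. With the non-KO morulae of both crosses as control they were Gata2 -0.84, Eomes -0.17, Tfap2c 0.0594, Id3 0.48 and Amhr2 0.28. Between Gabpb1 KO and non-KO morulae they were Tfap2a -0.45 with the block and -2.26 under voom, Tfap2c -0.25 under spike-in scaling, and Gata3 0.16 and Tnp2 2.97 against both crosses' non-KO morulae. Spike-in scaling turned Tead4 between stages (-0.0904 Alyref cross, -0.46 Gabpb1 cross, -0.27 mean), Tcf3 (-0.16, mean) and, in the Gabpb1 cross, Cdx2 (-0.35), Gata3 (-0.49) and Tfap2a (-0.20). With 1 embryo left out, the Alyref KO differences ran from -0.49 to 0.0664 (Cdx2), -0.23 to 8.57 (Gata2), -0.23 to 0.13 (Tfap2c), -7.63 to 0.85 (Elf5), -0.17 to 0.53 (Tead4), -0.41 to 1.29 (Id2), -0.47 to 0.015 (Amhr2) and 0 to 4.60 (Tnp2). The Gabpb1 KO differences ran from -1.18 to 0.17 (Cdx2), -1.48 to 0.38 (Gata3), -3.32 to 0.65 (Tfap2a), -0.38 to 0.13 (Tead4) and -0.91 to 1.37 (Tnp2). The Gabpb1 stage differences ran from -0.11 to 1.12 (Gata3) and -0.22 to 0.19 (Tfap2c). With 2 or 3 embryos a group and SE above 1 log2 unit for Gata2, Tfap2a, Elf5 and Id2, changes of that size could not be resolved.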
